A study of Mus musculus with 9 samples.

Results

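The sirtuins are the 7 mouse genes Sirt1 to Sirt7, and their members were taken as the rows whose gene name was Sirt1, Sirt2, Sirt3, Sirt4, Sirt5, Sirt6 or Sirt7. All 7 were listed among 24341 genes, and all 7 had enough reads to be tested in each comparison. RNA-Seq of oligo(dT)-selected mRNA was carried out on 9 samples of mouse embryonic fibroblasts (MEFs) of strain C57BL/6 grown in DMEM with serum, 3 labelled WT, 3 labelled Atm-/- and 3 labelled Sirt6-/-. The labels do not say whether the 3 samples of a genotype came from separate cultures or embryos, so p-values measure the spread between these samples, which may be technical. Among the mice that gave rise to the MEFs, the labels list P53-/- and Atm-/-P53-/- animals without tying them to samples. The methods describe immortalized Atm-/-; p53-/- and Sirt6-/- MEFs obtained from different laboratories, and do not say which MEFs were sequenced. A difference between genotypes therefore cannot be told apart from one between cell lines.

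Sirtuins use NAD+ to remove acetyl and longer acyl groups from lysine residues, so that their activity is tied to the metabolic state of the cell. SIRT1, SIRT6 and SIRT7 are mainly nuclear, SIRT2 is mainly cytoplasmic, and SIRT3, SIRT4 and SIRT5 reside in mitochondria. SIRT6 acts on chromatin in DNA repair and in the repression of glycolytic genes, and ATM is the kinase that responds to DNA double-strand breaks.

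Sirt1, the deacetylase of p53 and FOXO factors, was higher in the libraries labelled Atm-/- and in the Sirt6-/- libraries than in WT, by 2.64-fold and 2.15-fold. Sirt3, the main mitochondrial deacetylase, was 1.86-fold higher in Sirt6-/-. Sirt7 rose 1.25-fold in Atm-/-, and was called 1.19-fold lower in Sirt6-/-. Sirt2, the most abundant member, passed the test in none of the 3 comparisons with TMM normalization. Sirt6 itself was nearly absent from Sirt6-/- and was called 1.27-fold lower in Atm-/-; neither this call nor that of Sirt7 in Sirt6-/- held under all settings. A call here is an adjusted p under 0.05 in the quasi-likelihood test of edgeR, after Benjamini-Hochberg adjustment over all genes tested; errors of log2 fold changes are standard errors (SE).

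The reference start regions of 3 members are shown because they stand for the 3 behaviours above: Sirt1 was higher in both knockouts, Sirt2 was not called, and Sirt6 is the deleted gene. Each window holds 250 bases before and 50 bases after the RefSeq start on GRCm38.p6, written 5′ to 3′ on the strand of the gene, which is the plus strand for Sirt2 (chr7:28766502-28766801) and the minus strand for Sirt1 (chr10:63338986-63339285) and Sirt6 (chr10:81627517-81627816). Capitals mark matches on either strand to the E-box CACGTG, the GC box GGGCGG, the CCAAT box, the ETS motif CCGGAAG and the stretch GCATGCGC, which is part of the NRF1 motif.
Sirt1: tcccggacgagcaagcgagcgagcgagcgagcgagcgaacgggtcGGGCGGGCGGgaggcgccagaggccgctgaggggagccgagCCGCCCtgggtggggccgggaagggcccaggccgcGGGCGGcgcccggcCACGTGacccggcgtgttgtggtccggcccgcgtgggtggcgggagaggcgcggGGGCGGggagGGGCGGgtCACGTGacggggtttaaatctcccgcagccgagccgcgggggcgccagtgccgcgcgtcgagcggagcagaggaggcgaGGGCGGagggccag
Sirt2: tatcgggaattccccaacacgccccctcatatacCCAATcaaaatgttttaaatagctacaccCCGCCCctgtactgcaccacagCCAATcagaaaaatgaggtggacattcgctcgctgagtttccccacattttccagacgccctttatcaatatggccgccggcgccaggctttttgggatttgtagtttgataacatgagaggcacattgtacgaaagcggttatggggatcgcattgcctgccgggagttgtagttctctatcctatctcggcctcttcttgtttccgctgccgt
Sirt6: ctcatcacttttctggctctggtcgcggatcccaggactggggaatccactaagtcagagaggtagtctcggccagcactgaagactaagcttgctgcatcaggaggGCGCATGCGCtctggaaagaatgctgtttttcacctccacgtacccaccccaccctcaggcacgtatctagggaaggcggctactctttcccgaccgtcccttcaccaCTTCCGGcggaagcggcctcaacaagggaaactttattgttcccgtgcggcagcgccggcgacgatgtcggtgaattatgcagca

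The Sirt1 window held 47 CpG dinucleotides, more than 98.6% of the 32851 windows of all genes, whose median was 7. It held 2 E-boxes, a motif found in 7.15% of all windows, and 7 GC boxes, of which a pair overlap; 35.7% of all windows held at least 1 GC box. The Sirt2 window held 16 CpG dinucleotides, 2 CCAAT boxes, present in 37.4% of windows, and 1 GC box. In the Sirt6 window shown, 2 overlapping matches to GCATGCGC lay on opposite strands, and 1 ETS motif was present; 2.71% and 8.86% of windows held these motifs. RefSeq gave another start window for Sirt6, not shown, which held 1 GC box and neither of these motifs. The TATA box TATAAA, present in 13.6% of all windows, was in none of the 9 windows of the 7 members. These matches describe letters and show no binding.

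Samples had 32187040 to 33837949 counted reads, so that 3 reads correspond to 0.0887 to 0.0932 CPM (counts scaled to a library of fixed size). WT replicate 2 stood apart: its chi-square per gene against the other WT samples was 15.1 and 16.4, against 5.24 to 6.88 in all other pairs of one genotype. Without it, the calls of Sirt1, Sirt3, Sirt6 and Sirt7 against WT were the same, except that Sirt7 in Sirt6-/- was no longer called. Of 10 fibroblast markers, 10 reached a mean of 1 RPKM (reads scaled to transcript length and library size) in WT and in Atm-/- and 9 in Sirt6-/-, where Thy1 was at 0.271 RPKM. Their summed level was 6853 to 7229 RPKM in WT, 3416 to 3449 in Atm-/- and 7161 to 7207 in Sirt6-/-. The near-equal sums of WT and Sirt6-/- hid members that moved apart: mean RPKM were 1739 and 507 for Col1a1 and 1048 and 455 for Fn1, but 867 and 1520 for Col1a2 and 882 and 2901 for S100a4. Of the neural markers, Tubb3 had means of 1.02 RPKM in WT, 6.42 in Atm-/- and 17.0 in Sirt6-/-, and Map2 had 0.330, 15.7 and 9.49. Sox10 and Gfap of the same list stayed at or below a mean of 0.150 RPKM, with Gfap at 0 in Atm-/-. The sum of 6 epithelial markers was 11.1 to 13.9 RPKM in WT, 28.5 to 31.9 in Atm-/- and 8.85 to 11.2 in Sirt6-/-. Most of the higher sum in Atm-/- came from Krt18, with means of 4.85 RPKM in WT and 21.1 in Atm-/-. Krt8 had 4.69 and 5.97 there, and Krt14 had 1.62 and 1.57. Epcam, Cdh1 and Krt5 stayed below a mean of 1 RPKM in each genotype. Of 6 blood cell markers, only Cd68 passed 1 RPKM, and Cd3e and Hbb-bt were at 0 throughout. Of 5 endothelial markers, only Kdr did so, in Atm-/-, with Emcn at 0 in WT and Atm-/-. None of 5 muscle markers did, and Myog was at 0 throughout. The part of these differences in the sirtuin values was not tested.

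Atm, the gene of the kinase, had 3768, 3564 and 3443 reads in the libraries labelled Atm-/- and 1536, 1617 and 1627 in WT, so it was higher where it is labelled as lost. A read count over the whole gene does not show which exons were covered, and thus does not check the deletion. Trp53, the gene of p53, had 806, 946 and 928 reads in the libraries labelled Atm-/- against 6563 to 7108 in WT, 8.52-fold lower (log2 fold change -3.09 ± 0.07 SE, adjusted p = 2.99e-14). Differences of the sirtuins that go with Atm and those that go with p53 therefore cannot be told apart in these libraries. In Sirt6-/-, Atm had 2390, 2343 and 2072 reads and was also higher than in WT, by 1.37-fold (adjusted p = 3.33e-05). Trp53 had 9081 to 9218 reads in Sirt6-/- and was 1.27-fold higher than in WT.

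Levels of different genes were compared by RPKM, which divides by the listed transcript length. Sirt2, on chromosome 7 from 28766735 to 28788661 (plus strand, GRCm38, GENCODE M21), was highest in each genotype, with a mean of 28.3 ± 1.79 RPKM in WT, 31.6 ± 1.48 in Atm-/- and 28.3 ± 1.64 in Sirt6-/- (SD, n = 3). This level exceeded that of 87.9% of all listed genes in WT. Sirt7, which acts on histones and on ribosomal DNA transcription, came next with 10.3 ± 0.552, 14.4 ± 0.918 and 9.17 ± 0.781 RPKM. Sirt1 ranked below Sirt2, Sirt7, Sirt6 and Sirt4 in WT, with 3.66 ± 0.332 RPKM, and directly after Sirt2 and Sirt7 in both knockouts, with 10.8 ± 0.316 in Atm-/- and 8.35 ± 0.378 in Sirt6-/-. Neighbours in the order whose samples overlapped were Sirt4 and Sirt1, and Sirt3 and Sirt5, in WT. In Atm-/- they were Sirt4, Sirt3 and Sirt5 in turn, and in Sirt6-/- they were Sirt7 and Sirt1, and Sirt3 and Sirt4. In bulk RNA a lower level can stand for fewer cells with the transcript or for less RNA per cell, and these cannot be told apart.

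**Figure D1:**
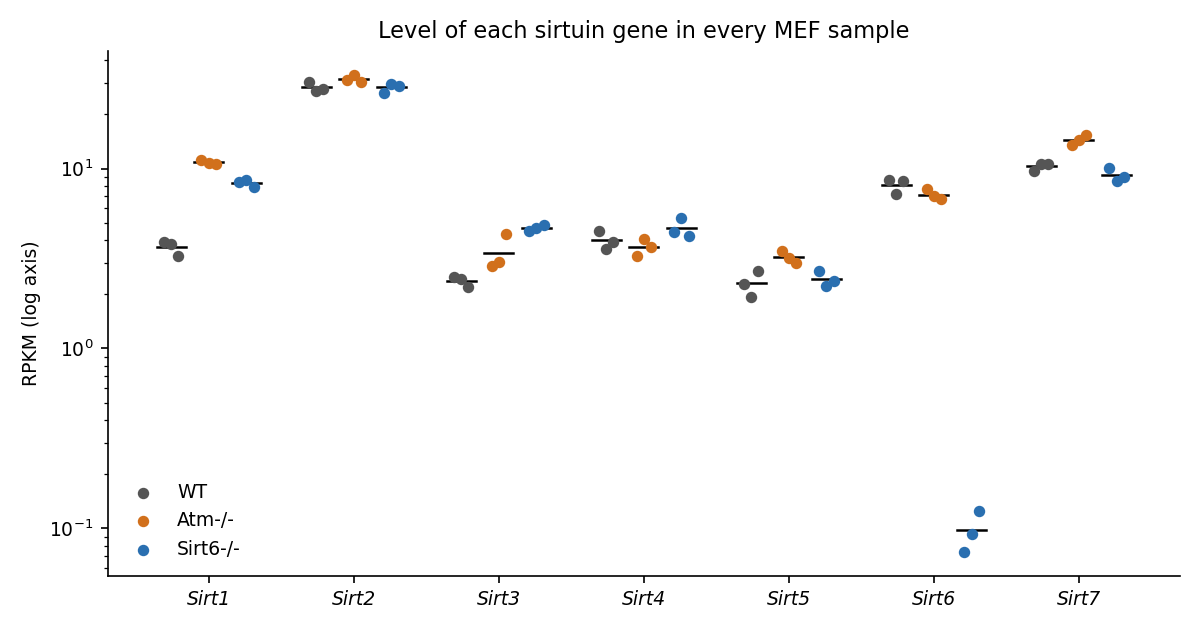
RPKM of each sirtuin (log axis) in every sample, with points for the 3 samples of a genotype in replicate order and black lines for their means. Sirt1 lies above all WT samples in both knockouts, Sirt2 is the highest member in each sample, and Sirt6 in Sirt6-/- has a mean of 0.0974 RPKM.

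Sirt1 lies on chromosome 10 from 63319005 to 63381704 (minus strand). Its read counts were 502, 478 and 415 in WT, 1399, 1350 and 1299 in Atm-/-, and 1035, 1063 and 1008 in Sirt6-/-. The 3 genotypes did not overlap, and WT was the lowest. In the libraries labelled Atm-/-, Sirt1 reached 38.9 ± 1.12 against 14.7 ± 1.38 normalized CPM in WT (log2 fold change 1.40 ± 0.09 SE, adjusted p = 2.11e-09). In Sirt6-/- it reached 30.8 ± 1.28 against 14.4 ± 1.34 CPM (log2 fold change 1.10, 95% interval 0.91 to 1.29, adjusted p = 3.24e-08). Called genes at least 2-fold higher than WT made up 12.6% of all genes tested in Atm-/- and 17.5% in Sirt6-/-, and Sirt1 was the only one of the 7 sirtuins among them in each case. The direct comparison put Sirt1 lower in Sirt6-/- than in Atm-/- by 0.31 on the log2 scale (log2 fold change -0.31, adjusted p = 2.31e-04). Both comparisons with WT share the same 3 WT samples. Leaving out each sample in turn kept the fold changes against WT at 1.33 to 1.45 in Atm-/- and 1.02 to 1.14 in Sirt6-/-.

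Sirt6, the deacetylase of histones deleted in one genotype, lies on the same chromosome from 81621785 to 81627797 (minus strand). It had 487, 402 and 472 reads in WT and 4, 5 and 7 in Sirt6-/-. The Sirt6-/- samples thus carried few reads over the gene, 86.2-fold fewer than WT after normalization (log2 fold change -6.43, 95% interval -6.93 to -5.93, adjusted p = 2.85e-12). In Atm-/-, Sirt6 had 424, 389 and 364 reads. Its normalized level of 11.3 ± 0.775 against 14.4 ± 1.33 CPM in WT was called lower (log2 fold change -0.35 ± 0.11 SE, adjusted p = 0.0131), with no overlap in CPM. In RPKM the samples overlapped, with 6.76 to 7.71 in Atm-/- and 7.25 to 8.62 in WT. With library totals the log2 fold change was -0.18 (adjusted p = 0.159), and without WT replicate 1 or Atm-/- replicate 3 the adjusted p was 0.0516 and 0.0555.

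Sirt7 lies on chromosome 11 from 120618372 to 120625240 (minus strand). Its reads numbered 560, 607 and 602 in WT, 761, 823 and 847 in Atm-/-, and 557, 472 and 514 in Sirt6-/-. The Atm-/- samples were above all others, while the Sirt6-/- samples lay just below WT in reads. In RPKM, Sirt6-/- and WT overlapped, with 8.52 to 10.04 and 9.64 to 10.65. Sirt7 was higher in Atm-/- (log2 fold change 0.32 ± 0.09 SE, adjusted p = 0.00455) and lower in Sirt6-/- (log2 fold change -0.25 ± 0.10 SE, adjusted p = 0.0279). The latter call was lost with library totals (adjusted p = 0.144) and without WT replicate 2, WT replicate 3, Sirt6-/- replicate 2 or Sirt6-/- replicate 3, when adjusted p was 0.0519, 0.0594, 0.112 and 0.0750. Between the knockouts, Sirt7 was lower in Sirt6-/- (log2 fold change -0.59 ± 0.09 SE, adjusted p = 5.69e-06), and this call held under every alternative run.

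The mitochondrial members were the least abundant with Sirt1 in WT, and differed from each other. Sirt3, on chromosome 7 from 140863666 to 140882309 (minus strand), had 124, 118 and 107 reads in WT, 139, 148 and 206 in Atm-/-, and 214, 221 and 239 in Sirt6-/-. All Sirt6-/- samples exceeded all others, and among the Atm-/- samples replicate 3 stood well above the others. Sirt3 was higher in Sirt6-/- than in WT (log2 fold change 0.90 ± 0.16 SE, adjusted p = 1.09e-04) and than in Atm-/- (log2 fold change 0.52 ± 0.17 SE, adjusted p = 0.00877). The latter was not called without Atm-/- replicate 1 (adjusted p = 0.0529). In Atm-/- against WT its log2 fold change was 0.36 (adjusted p = 0.114), and 0.16 without Atm-/- replicate 3.

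Sirt4, whose protein acts as a lipoamidase and ADP-ribosyltransferase in mitochondria, lies on chromosome 5 from 115478010 to 115484725 (minus strand). It had 251, 194 and 214 reads in WT, 177, 222 and 195 in Atm-/-, and 235, 281 and 233 in Sirt6-/-, so that both knockouts overlapped WT. Neither comparison with WT passed the test (adjusted p = 0.110 and 0.430), with 95% intervals of the log2 fold change of -0.61 to 0.04 in Atm-/- and -0.19 to 0.45 in Sirt6-/-. Sirt4 was higher in Sirt6-/- than in Atm-/- (log2 fold change 0.40 ± 0.15 SE, adjusted p = 0.0179), a call lost without Atm-/- replicate 1 or Sirt6-/- replicate 2 (adjusted p = 0.0790 and 0.0998).

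Sirt5, the desuccinylase of mitochondria, lies on chromosome 13 from 43365496 to 43395203 (plus strand). Its reads numbered 105, 88 and 122 in WT, 156, 145 and 132 in Atm-/-, and 118, 98 and 108 in Sirt6-/-. The Atm-/- samples were above the rest, yet the difference from WT did not pass the test (log2 fold change 0.32, 95% interval -0.08 to 0.72, adjusted p = 0.144). Sirt5 gave a log2 fold change of -0.01 in Sirt6-/- against WT (95% interval -0.45 to 0.43) and -0.35 against Atm-/- (adjusted p = 0.0883).

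Sirt2, a deacetylase of tubulin, had 1700, 1483 and 1521 reads in WT, 1700, 1833 and 1623 in Atm-/-, and 1412, 1576 and 1595 in Sirt6-/-. The genotypes overlapped, with a log2 fold change of -0.0049 in Atm-/- (95% interval -0.15 to 0.14) and -0.09 in Sirt6-/- (95% interval -0.24 to 0.06). Sirt2 was the best counted of the 7, so its intervals are the narrowest in these comparisons.

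**Figure D2:**
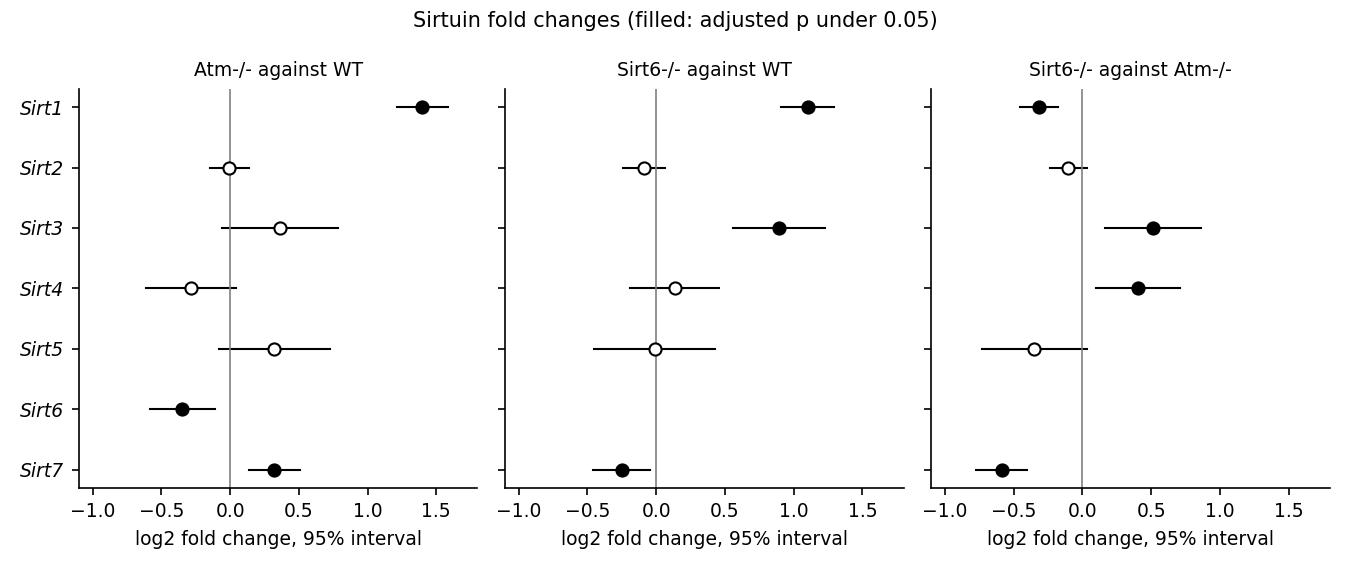
log2 fold change of each sirtuin with its 95% interval in the 3 comparisons, filled where the adjusted p was under 0.05. Sirt6 is not drawn in the panels with Sirt6-/-, where it stood at -6.43 and -6.10. Sirt1 lies at 1.40 and 1.10 against WT, and the intervals of Sirt2 include 0 in each panel.

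In Atm-/- against WT, 2 of the 7 members were called higher, 1 lower and 4 neither, while 34.7% of all genes tested were called higher and 33.6% lower. In Sirt6-/- against WT, 2 were higher, 2 lower and 3 neither, against 39.2% and 37.4% of all genes. In Sirt6-/- against Atm-/-, 2 were higher, 3 lower and 2 neither, against 37.8% and 38.0%. Calls were thus common among all genes, and these counts alone do not set the members apart. The median log2 fold change of the members was 0.32, -0.01 and -0.31 in these comparisons, against 0.02, 0.02 and -0.0021 over all genes. Library totals in place of TMM moved the median of all genes to 0.18 in Atm-/- and 0.11 in Sirt6-/- against WT. In Atm-/-, they also changed the split of all calls from 4611 higher and 4469 lower to 6156 and 3326, and 5 sirtuins were then called higher, with Sirt2, Sirt3 and Sirt5 added, and 0 lower. In Sirt6-/- against Atm-/-, library totals left 2 sirtuins higher and 5 lower, with Sirt2 (log2 fold change -0.16, adjusted p = 0.0271) and Sirt5 (log2 fold change -0.41, adjusted p = 0.0485) added. The rise of Sirt1 held on both scales.

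**Figure D3:**
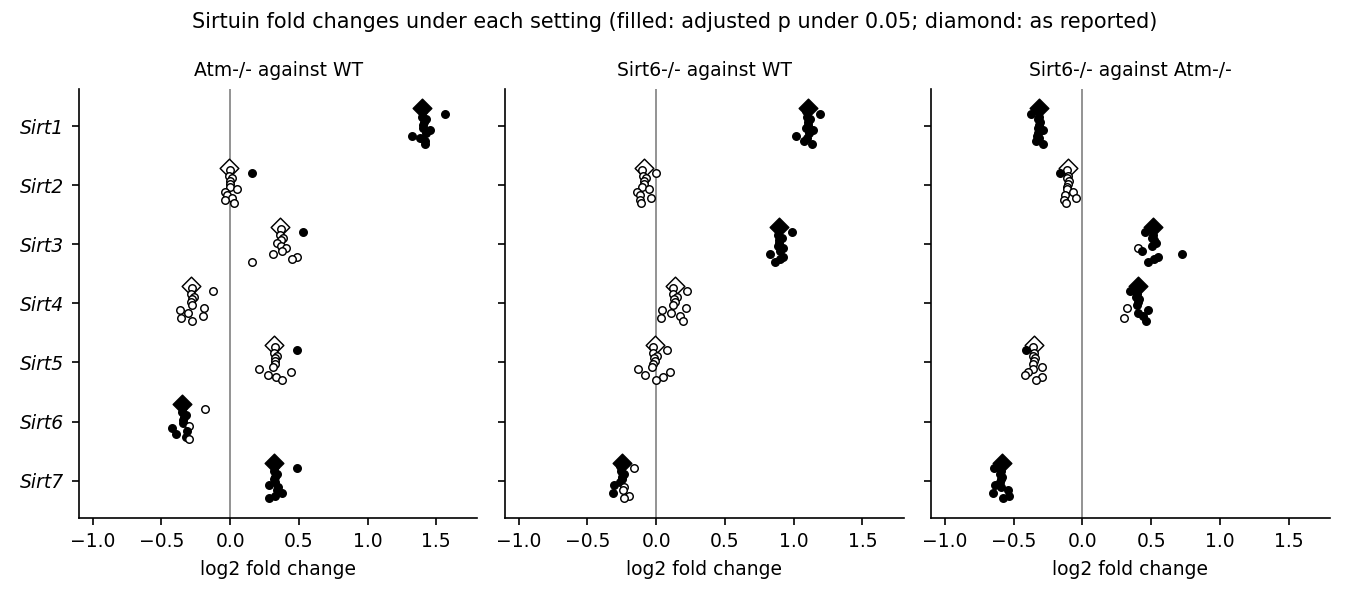
log2 fold change of each sirtuin under each setting tried, with a diamond for the reported value, circles for the alternatives and filled symbols for an adjusted p under 0.05. Sirt6 is left out of the panels with Sirt6-/-. Sirt1 is filled throughout, whereas Sirt6 in Atm-/- and Sirt7 in Sirt6-/- lose the call in some settings.

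As a description of the family's makeup, the RPKM of the 7 members were added within each sample. The sums were 61.8, 56.6 and 58.7 in WT, 73.1, 75.6 and 74.1 in Atm-/-, and 56.6, 59.0 and 57.3 in Sirt6-/-. On this scale the Atm-/- sums were above all others, and the Sirt6-/- sums overlapped those of WT. Without Sirt6, the other 6 members added up to 49.4 to 53.2 RPKM in WT, 65.4 to 68.6 in Atm-/- and 56.5 to 58.9 in Sirt6-/-, with no overlap on this scale. RPKM rest on library totals, and both statements about Sirt6-/- turn with TMM-normalized levels per kilobase. The sums of all 7 were then 60.1 to 65.7 in WT, 69.6 to 71.9 in Atm-/- and 56.1 to 58.9 in Sirt6-/-, so that Sirt6-/- lay below WT without overlap. Those of the other 6, computed on this scale after the data were seen, were 52.4 to 56.5 in WT, 62.3 to 65.3 in Atm-/- and 56.1 to 58.8 in Sirt6-/-, so that Sirt6-/- and WT overlapped. The Atm-/- sums were above WT and Sirt6-/- on both scales. Sirt1 made up 6.21 ± 0.562% of the family sum in WT, 14.6 ± 0.626% in Atm-/- and 14.5 ± 0.563% in Sirt6-/- (SD, n = 3). The mitochondrial members together held 14.7 ± 0.580%, 13.9 ± 0.903% and 20.4 ± 0.338%. Sirt2 held 48.0 ± 1.07%, 42.6 ± 1.48% and 49.0 ± 2.01%. The RPKM ratio of Sirt1 to Sirt6 within a sample was 0.387 to 0.523 in WT and 1.45 to 1.57 in Atm-/-, so that Sirt1 lay below Sirt6 in each WT sample and above it in each Atm-/- sample.

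**Figure D4:**
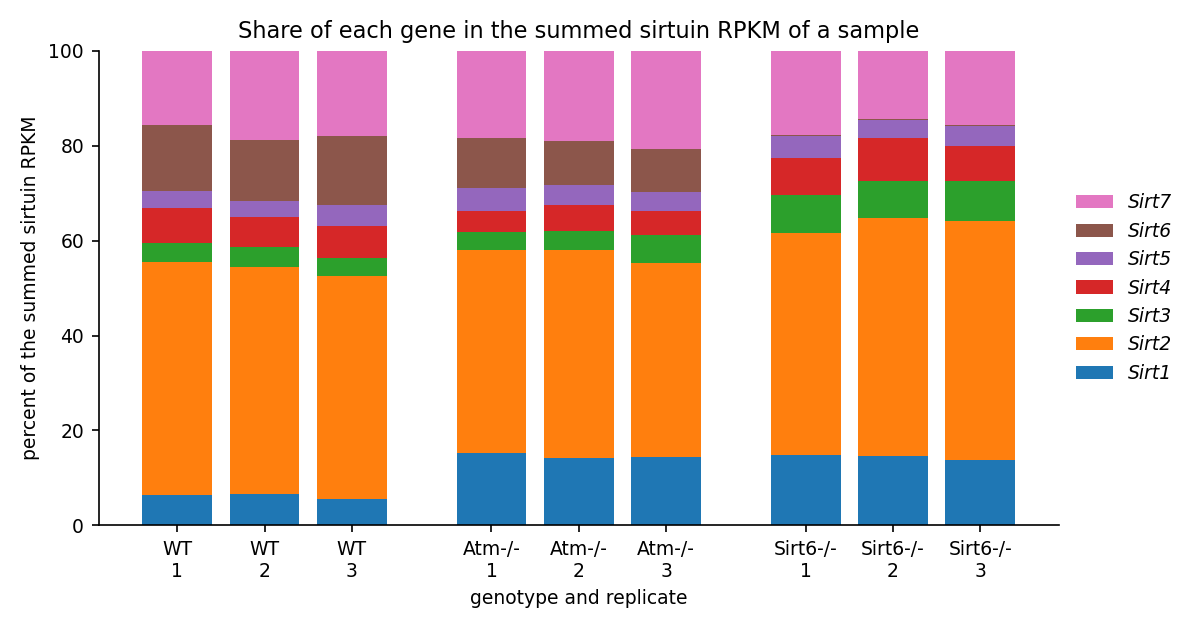
Share of each member in the summed sirtuin RPKM of each sample, as stacked bars adding up to 100%. The Sirt1 share is 5.59 to 6.70% in WT and 13.9 to 15.3% in the knockouts, and the Sirt6 share falls from 12.8 to 14.5% in WT to 0.131 to 0.219% in Sirt6-/-.

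Genes next to the sirtuins were listed from the annotation. Of 20 neighbouring or overlapping genes, 16 had a row and 12 were tested; 9 were higher and 2 lower in Atm-/-, 4 higher and 4 lower in Sirt6-/- against WT, and 3 higher and 8 lower in Sirt6-/- against Atm-/-. Of all genes tested, 34.7% and 33.6%, 39.2% and 37.4%, and 37.8% and 38.0% were called in these directions. Dnajc12, a cochaperone gene on the opposite strand, 739 bases from the end of the GENCODE gene of Sirt1, which reaches far beyond the RefSeq start window shown above, had 25, 12 and 10 reads in WT, 112, 118 and 92 in Atm-/-, and 198, 234 and 195 in Sirt6-/-. It was thus higher than WT in both knockouts, as Sirt1 was, but highest in Sirt6-/- (log2 fold change 2.63 and 3.68, adjusted p = 6.76e-06 and 2.32e-08). Herc4, 1127 bases away on the other side, was higher in Atm-/- by 0.20 on the log2 scale (adjusted p = 0.0103) and gave -0.10 in Sirt6-/- (adjusted p = 0.176). The neighbours of Sirt6 did not share its loss. BC025920 was called higher in both knockouts (log2 fold change 1.05 and 1.06, adjusted p = 0.0359 and 0.0349). This gene had few reads, with 24, 9 and 14 in WT, 42, 35 and 30 in Atm-/-, and 34, 26 and 42 in Sirt6-/-. Ankrd24 had 80 to 89 reads in WT and 95 to 101 in Sirt6-/- (adjusted p = 0.572).

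Several members overlap other genes. Sirt2 shares 778 bases with Nfkbib, an inhibitor of NF-kB, and Sirt3 shares 707 bases with Ric8a, listed as Ric8, and 342 with Psmd13, a proteasome subunit, all on the opposite strand. The sources used here do not state strand-specific counting, so reads from the shared bases cannot be told apart. Nfkbib fell in Sirt6-/- (log2 fold change -0.39, adjusted p = 0.00570), where Sirt2 was not called. Ric8a fell in Sirt6-/- (log2 fold change -0.50, adjusted p = 3.64e-05), and Psmd13 gave 0.03 there (adjusted p = 0.654), whereas Sirt3 rose. Sirt7 overlaps Mafg by 124 bases on the same strand, and Mafg rose in Atm-/- (log2 fold change 0.24, adjusted p = 0.00772) as Sirt7 did. In Sirt6-/- against WT, where Sirt7 was called lower, Mafg gave 0.04 (adjusted p = 0.618). Between the knockouts, Mafg was lower in Sirt6-/- (log2 fold change -0.22, adjusted p = 0.00438), as Sirt7 was. An antisense gene, Gm16145, overlaps Sirt1 by 13035 bases and was not analysed here.

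Genes with the most similar pattern were found over the 9 samples by the root mean square difference of centred log2 CPM among 11446 genes. For Sirt1 they were Myh9, a nonmuscle myosin heavy chain, with a difference of 0.08 and mean CPM of 616 in WT, 1645 in Atm-/- and 1258 in Sirt6-/-, and St6gal1, a sialyltransferase, with 0.09. The closest genes were Dnajb6 and Zscan29 for Sirt2 (0.04 and 0.05), Gramd1a and Cep41 for Sirt3 (0.10 for both), and 1110058L19Rik and C330006A16Rik for Sirt4 (0.08 for both). For Sirt5 they were Atxn7l3 and Ndnl2 (0.07 and 0.08), and for Sirt7 Kti12 and Ivd (0.04 and 0.05). For Sirt6 they were Fam184a and Tgfa, a ligand of the EGF receptor, which had 18.2 CPM in WT, 11.7 in Atm-/- and 0.264 in Sirt6-/-. Within the family the closest pair was Sirt5 and Sirt7, with a difference of 0.18, and all 6 pairs with Sirt6 exceeded 1.87. The near loss of Sirt6 reads in Sirt6-/- fixed these large differences in advance. It also fixed that its closest genes were nearly absent there, as Fam184a was with 0.0205 CPM.

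Genes that supply the cosubstrate were described next, since all sirtuins consume NAD+. The counts of this and the following lists stand beside 34.7% of all genes called higher and 33.6% lower in Atm-/-, 39.2% and 37.4% in Sirt6-/- against WT, and 37.8% and 38.0% in Sirt6-/- against Atm-/-, and they are given as descriptions. Of 10 listed genes of NAD+ supply, 8 were tested; 3 were higher and 2 lower in Atm-/-, and 4 higher and 2 lower in Sirt6-/- against WT, with median log2 fold changes of 0.20 and 0.53. Set against Atm-/-, 2 were higher and 4 lower in Sirt6-/-, with a median of -0.57. Nampt, the rate-limiting enzyme of NAD+ salvage, rose in both (log2 fold change 0.67 and 0.91, adjusted p = 5.0e-08 and 1.73e-09). Nnmt, which methylates nicotinamide and thus removes it from salvage, had 994, 770 and 993 reads in WT, 113, 106 and 110 in Atm-/-, and 0, 2 and 2 in Sirt6-/-. Nmnat3, a mitochondrial enzyme of NAD+ synthesis, was also lower in both (log2 fold change -2.55 and -3.53, adjusted p = 2.58e-09 and 4.31e-10). Between the knockouts, Nmnat2 was lower in Sirt6-/- (log2 fold change -1.26, adjusted p = 3.60e-07) and Nmrk1, the nicotinamide riboside kinase, higher (log2 fold change 1.19, adjusted p = 8.00e-07). Against WT, Nmnat2 was higher in both knockouts (log2 fold change 2.16 in Atm-/- and 0.91 in Sirt6-/-, adjusted p = 9.16e-08 and 0.00139).

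Of 8 other NAD+ users, 7 were tested; 2 were higher and 2 lower in Atm-/-, 5 higher and 1 lower in Sirt6-/- against WT, and 3 higher and 1 lower between the knockouts. Their medians were -0.05, 0.23 and 0.01. Parp1, the main poly(ADP-ribose) polymerase, was lower in both knockouts (log2 fold change -0.22 in Atm-/- and -0.73 in Sirt6-/-, adjusted p = 0.000338 and 1.11e-09). Parp3 was lower in Atm-/- (log2 fold change -0.95, adjusted p = 3.81e-08), and Tnks, a tankyrase, was higher in both (log2 fold change 0.41 and 0.42, adjusted p = 3.60e-05 and 6.53e-06). Against Atm-/-, Sirt6-/- had more Parp3 (log2 fold change 1.15, adjusted p = 7.14e-13) and less Parp1 (log2 fold change -0.52, adjusted p = 3.13e-10).

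All 5 listed regulators of SIRT1 were tested; 4 were higher and 1 lower in Atm-/-, 2 higher and 3 lower in Sirt6-/- against WT, and 1 higher and 2 lower between the knockouts, with medians of 0.35, -0.25 and 0.01. Hic1, a transcriptional repressor of Sirt1, had 411, 453 and 295 reads in WT, 77, 63 and 96 in Atm-/-, and 168, 226 and 216 in Sirt6-/-. Its order across genotypes was the reverse of that of Sirt1, with no overlap (log2 fold change -2.43 and -0.98 against WT, adjusted p = 6.54e-08 and 1.01e-04; 1.43 between the knockouts). A link between them was not tested. Ccar2 and Usp22 of the same list were higher in both knockouts. Their log2 fold changes in Atm-/- and Sirt6-/- were 0.35 and 0.40 for Ccar2, and 0.47 and 0.49 for Usp22. Elavl1 was higher in Atm-/- and lower in Sirt6-/- (log2 fold change 0.14 and -0.25, adjusted p = 0.0311 and 0.000829). Rps19bp1, which encodes an activator of SIRT1, was higher in Atm-/- (log2 fold change 0.55, adjusted p = 6.21e-06) and lower in Sirt6-/- (log2 fold change -0.50, adjusted p = 5.75e-05), and differed between the knockouts by -1.07 (adjusted p = 1.39e-11).

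Of 10 nuclear substrates and partners of sirtuins, 10 were tested in Atm-/- against WT, with 5 higher and 4 lower, and 9 in Sirt6-/- against WT, with 6 higher and 1 lower. Between the knockouts 5 were higher and 3 lower, and the medians were 0.08, 0.50 and 0.45. Ppargc1a, the coactivator of mitochondrial biogenesis, had 6, 19 and 22 reads in WT and 263, 247 and 242 in Atm-/- (log2 fold change 3.85, adjusted p = 2.13e-08). In Sirt6-/- it had 9, 5 and 10 reads, far fewer than in Atm-/- (log2 fold change -4.88, adjusted p = 4.63e-13), whereas Trp53 was higher than in Atm-/- (log2 fold change 3.42, adjusted p = 7.88e-22). Foxo3 and Wrn, a helicase gene, were higher in Sirt6-/- (log2 fold change 1.58 and 1.51, adjusted p = 1.11e-10 and 6.73e-10). In Atm-/- against WT, Wrn was also higher but Foxo3 lower (log2 fold change 0.75 and -0.54, adjusted p = 4.19e-06 and 0.000288).

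Of 10 mitochondrial substrates, 7 were tested; 2 were higher and 2 lower in Atm-/-, 4 higher and 3 lower in Sirt6-/- against WT, and 3 higher and 2 lower between the knockouts, with medians of 0.08, 0.12 and 0.02. Sod2, the superoxide dismutase that SIRT3 deacetylates, was higher in Sirt6-/- than in WT (log2 fold change 0.84, adjusted p = 1.32e-09). Mlycd, malonyl-CoA decarboxylase, a substrate of SIRT4, was higher there too (log2 fold change 1.27, adjusted p = 1.61e-06). Both were also higher in Sirt6-/- than in Atm-/- (log2 fold change 1.06 for each, adjusted p = 3.38e-14 and 6.17e-07). In Atm-/-, Pdha1 was lower and Idh2 higher (log2 fold change -0.40 and 0.26, adjusted p = 6.49e-07 and 0.00140). Pdha1 and Idh2 moved the same way in Sirt6-/- against WT (log2 fold change -0.42 and 0.42, adjusted p = 3.8e-07 and 1.24e-05). Acadl and Sdha were also lower in Sirt6-/- than in WT (log2 fold change -0.53 and -0.18, adjusted p = 5.88e-07 and 0.00205).

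The 11 zinc-dependent deacetylases, which do not use NAD+, were all tested. In Atm-/-, 6 were higher and 4 lower, in Sirt6-/- against WT 7 were higher and 2 lower, and between the knockouts 4 were higher and 3 lower, with medians of 0.17, 0.31 and 0.22. Hdac6, which shares tubulin as a substrate with SIRT2, was higher in both knockouts (log2 fold change 1.07 for both, adjusted p = 9.28e-08 and 2.37e-08). Hdac5 was also higher in both (log2 fold change 0.49 in Atm-/- and 1.09 in Sirt6-/-, adjusted p = 2.19e-05 and 1.67e-09). Hdac9 had larger changes in both (log2 fold change 2.62 and 3.22, adjusted p = 0.000295 and 1.82e-05). It did not meet the conditions on level and overlap set for the choice of named genes. Hdac11 was lower in Atm-/- (log2 fold change -1.05, adjusted p = 0.0108), and Hdac8 and Hdac5 were higher in Sirt6-/- than in Atm-/- (log2 fold change 0.60 and 0.58, adjusted p = 4.88e-05 and 1.93e-09).

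**Figure D5:**
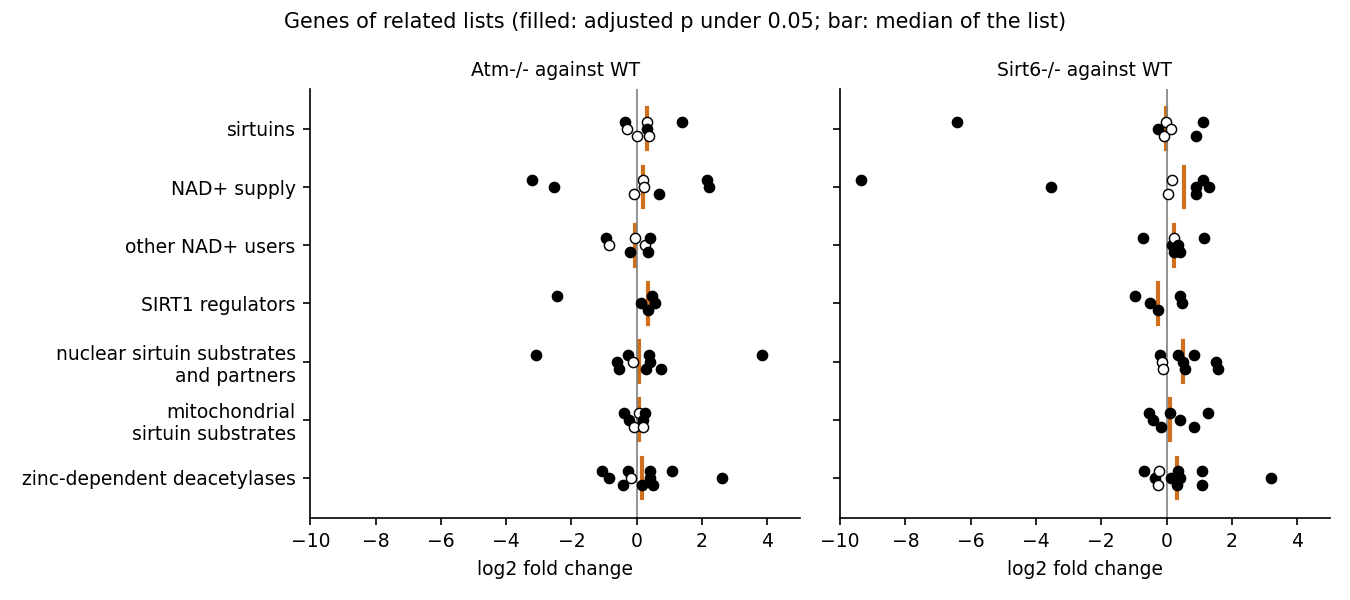
log2 fold change of each tested gene of the related lists against WT, with the sirtuins in the top row, filled points for an adjusted p under 0.05 and bars for the median of each list. Nnmt in Sirt6-/-, with 0, 2 and 2 reads, is the leftmost point, and its position there depends on the prior count. The medians of the lists stay between -0.25 and 0.53.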

How the data were processed

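RNA-Seq of 9 MEF samples was used. Read counts of 24341 genes, not normalized, were deposited for every sample with a transcript length. The deposited RPKM were made by the authors from these counts, the length and the read total. The build mm10 is named in the submitters' processing notes; the aligner and counter are not given in the sources used here.

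Each pair of genotypes was fitted with edgeR 4.0.16 in R 4.3.3: filterByExpr, TMM, glmQLFit (prior count 0.125) and glmQLFTest, with p-values adjusted by the Benjamini-Hochberg method over all genes tested. Standard errors came from the F statistic. Depth was 32187040 to 33837949 reads; intervals cover the spread between samples. RPKM served for levels between genes, without a test. Normalized CPM are computed within the 6 samples of a comparison.

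The members and lists were chosen with earlier results of these data known. Named genes were the 7 sirtuins, Atm and Trp53; in each list and comparison the 2 largest called changes among genes without overlap whose mean log2 CPM reached 1; the annotated neighbours, of which a selection is given with values; and the 2 genes of most similar pattern, with 0.5 CPM added before the log. Nampt was named after its values were seen, for its role. Acadl and Sdha were likewise named after their values were seen, as members of their list that were lower in Sirt6-/-. So were Ccar2, Elavl1 and Usp22, as the other listed SIRT1 regulators, and Hdac9, for its large changes. Pattern similarity used TMM over all 9 samples.

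Alternatives were DESeq2 size factors, library totals, no and a stricter filter, a joint fit of all samples, a replicate block, the DESeq2 1.42.0 Wald test, each sample left out, and other scalings of the level. Positions are from GENCODE M21 on GRCm38 (mm10), matched by name for 95.2% of genes; start regions are from RefSeq on GRCm38.p6. The labels give no batch or date. Of the marker genes, 1 gene is not reported here.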

Additional observations from a re-analysis of the deposited data

How the results depend on the processing

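Each sirtuin call was recomputed under every alternative. Of the values of single members, 243 kept their direction and side of the threshold, 11 were no longer called and 13 changed sign. A further 4 became called with their sign kept. All changes of sign were for Sirt2 in Atm-/- or Sirt5 in Sirt6-/-, neither of which was called as reported. Among the values that changed sign, that of Sirt2 in Atm-/- with library totals also became called. For Sirt2 in Atm-/- the log2 fold change became 0.0018 with DESeq2 size factors, 0.16 with library totals (adjusted p = 0.0459), 0.017 with at least 10 counts in every sample, 0.0028 with all samples in one fit and 0.0012 in the DESeq2 Wald test, and ran from -0.039 to 0.051 with each sample left out. For Sirt5 in Sirt6-/- against WT it became 0.077 with library totals and 0.0037 with at least 10 counts, and ran from -0.13 to 0.10 with each sample left out. With library totals, 5 sirtuins instead of 3 were called in Atm-/- against WT; the scaling itself moves all genes. In Sirt6-/- against Atm-/- it raised the called members from 5 to 7, with Sirt2 and Sirt5 added as lower. With each sample left out, 2 to 3, 3 to 4 and 3 to 5 members were called in Atm-/- against WT, Sirt6-/- against WT and Sirt6-/- against Atm-/-; the lowest count of the last came without Atm-/- replicate 1. With at least 10 counts in every sample, Sirt6 could not be tested in Sirt6-/-. The summed level was 62.6 in WT, 70.7 in Atm-/- and 57.5 in Sirt6-/- as TMM-normalized CPM per kilobase, and 136.5, 163.2 and 127.2 in WT, Atm-/- and Sirt6-/- after rescaling RPKM to TPM, which sets another total. The sum without Sirt6 moved from 50.9 to 54.0 in WT and from 67.1 to 63.9 in Atm-/-, and stayed at 57.5 and 57.4 in Sirt6-/-, on the TMM scale, an alternative chosen after seeing the data. Replicate numbers shared by the genotypes did not pair the samples (correlations of same-numbered samples from -0.02 to 0.08, and not every sample correlated best with its own number). With a replicate block, 3, 4 and 5 members were called as without it, and no call of a member changed. Read numbers limit the precision of Sirt3, Sirt4 and Sirt5, with 88 to 281 reads a sample, and of Sirt6 in Sirt6-/-, with 4, 5 and 7.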
